A study of Mus musculus with 12 samples.

Results

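The 10 genes described here handle retinoids in the cell: Stra6, Lrat, Dhrs3, Rdh10, Rdh11, Aldh1a2, Crabp1, Crabp2, Cyp26a1 and Cyp26b1. The cells were F9, a teratocarcinoma line of mouse that differentiates when given retinoic acid. Included were all probe sets that the platform annotation gives to one of these symbols alone, 12 of the 37600 probe sets tested and 10 of the 16509 genes named by them. Rdh10 and Rdh11 had 2 probe sets each, and the other genes 1 each. The 4 groups of 3 arrays were RARaKO cells (labelled as lacking Rara, which encodes retinoic acid receptor alpha) with all-trans retinoic acid (atRA), RARaKO cells with the ethanol vehicle (EtOH), WT cells with atRA and WT cells with EtOH. Cells of all 4 groups also received cycloheximide, an inhibitor of protein synthesis, at 1 µg/ml from 30 min before the treatment. The dose of atRA was 1 µM, that of EtOH was 0.1%, and the treatment lasted 7.5 h per the treatment protocol, while the sample labels and the series' design give 8 h. How the knockout was made, and whether the RARaKO cells are a single clone, is not given in the sources used here. The arrays carry set numbers 2, 3 and 4 in each group, and values per array are given below in that order. Nothing in the labels says that sets are separate cultures, so the p-values rest on a spread between arrays that may be technical.

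The comparisons ask which of these genes retinoic acid changes while new protein synthesis is blocked, and whether the genotype alters that change. As background, STRA6 carries retinol across the cell membrane, and LRAT joins retinol to a fatty acid for storage. RDH10 oxidises retinol to retinal, while DHRS3 and RDH11 can turn retinal back into retinol. ALDH1A2 oxidises retinal to retinoic acid, CRABP1 and CRABP2 bind retinoic acid in the cytoplasm, and CYP26A1 and CYP26B1 oxidise it for disposal. Retinoic acid acts through nuclear receptors, the RARs, which pair with RXRs on direct repeats of a short half-site in DNA, and Cyp26a1 is a classic target of this kind.

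The sequence just upstream of Cyp26a1 is shown because it holds such a repeat. In RefSeq's promoter windows (250 bases before and 50 after an annotated start, GRCm38.p6), 8 of the 10 genes had 14 windows, and Rdh10 and Crabp2 had none. The letters searched were the half-sites AGGTCA or AGTTCA or GGGTCA or GGTTCA, as a pair in the same direction 1, 2 or 5 bases apart, on either strand. Cyp26a1, on chromosome 19, held the only match among the 14 windows, a repeat with 5 bases between its half-sites on the minus strand at chr19:37697776-37697792. Read on that strand it is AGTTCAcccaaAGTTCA, with the half-sites in capitals. The 250 bases upstream of the annotated start, chr19:37697558-37697807 on the plus strand, have the repeat in capitals, as it reads on the plus strand, at bases -32 to -16 from the start:
Cyp26a1 upstream: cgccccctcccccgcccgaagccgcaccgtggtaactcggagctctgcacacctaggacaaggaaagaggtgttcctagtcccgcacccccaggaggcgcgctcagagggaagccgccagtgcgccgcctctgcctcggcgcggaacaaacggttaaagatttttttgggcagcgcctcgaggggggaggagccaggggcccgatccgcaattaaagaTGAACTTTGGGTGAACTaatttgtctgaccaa
Of all 32851 windows in the table, 32 (0.0974%) held a repeat of these letters 5 bases apart, and 193 (0.588%) held one at any of the 3 spacings. A single half-site was found in 43.7% of windows. Sequence outside these windows was not searched, so the lack of a match in the other genes speaks only for their windows. A match is a description of letters, and binding was not measured here.

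The deposited values are log expression values, taken as log2, and every row has a median of 0 over the 12 arrays. A value of 0 is therefore the gene's own middle, and levels cannot be compared between genes. A coarse class of the lost level could be recovered from the numeric spacing of the values: at least 8, from 4 to 8, or under 4 on the log2 scale. Cyp26a1 and both probe sets of Rdh10 and of Rdh11 lay in the class of at least 8, and the other 7 lay from 4 to 8. Of 10 markers of undifferentiated F9 cells, 10 were in the highest class and none was called in any comparison. Of 12 markers of extraembryonic endoderm, 9 were also in the highest class and none was called. Their mean ran from -0.05 to 0.06 in RARaKO arrays with either treatment. In WT arrays it ran from -0.20 to 0.12 with atRA and from -0.12 to 0.14 with EtOH. For the marker Ttr, 1455913_x_at stood at 0.99, -0.67 and 1.57 in WT atRA arrays and 0.94, -0.40 and 1.43 in WT EtOH arrays. Its probe set 1451580_a_at varied less, at 0.21, -0.10 and 0.55 in WT EtOH arrays. The part of these markers in the responses was not tested. Of 7 measured fibroblast markers, 2 (Pdgfra and Vim) were in the highest class, and Pdgfrb alone was called, higher with atRA in both genotypes. The mean of the 7 ran from -0.01 to 0.03 in RARaKO atRA arrays, against -0.03 to -0.01 in RARaKO EtOH arrays, and from -0.04 to 0.04 in WT atRA arrays, against -0.03 to 0.03 in WT EtOH arrays, and its part in the responses was not tested. The single probe set of Rara went against the genotype label. It averaged 0.30 ± 0.02 in EtOH arrays labelled RARaKO, against -0.60 ± 0.14 in WT EtOH arrays (SD, n = 3 each), a difference of 0.90 ± 0.09 (SE) with a limma adjusted p of 1.50e-04. Whether this probe set lies in the disrupted part of the gene is not given in the sources used here, so the arrays are called by their label.

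Retinoic acid raised the transcripts of Cyp26a1, Dhrs3 and Stra6 in cells of both genotype labels. In the arrays labelled RARaKO, Cyp26a1 rose 2.60-fold, Stra6 1.75-fold and Dhrs3 1.63-fold, and in WT arrays they rose 2.55-fold, 1.78-fold and 2.08-fold. In the main fit, which has no block for the set, none of the other 7 genes passed the test in either response. The nearest to it in WT arrays was Aldh1a2, at -0.43 (limma adjusted p = 0.0757). In arrays labelled RARaKO it was Lrat, at 0.41 (limma adjusted p = 0.203), closely followed by Aldh1a2, at -0.37 (limma adjusted p = 0.207). In the arrays labelled RARaKO, 3 of the 12 probe sets were called (limma adjusted p under 0.05, Benjamini-Hochberg over 37600 probe sets), against 0.263% for the whole table, 0.215% higher and 0.0479% lower. In WT arrays it was again 3 of 12, against 0.569% for the whole table, 0.484% higher and 0.0851% lower. The median difference over the 12 was -0.02 in the arrays labelled RARaKO and 0.06 in WT arrays, against -0.00 and -0.01 over all probe sets. Samples of the same set deviated together, and with the set as a block the calls over all probe sets numbered 167 in place of 99 for RARaKO and 339 in place of 214 for WT. The difference between the responses, RARaKO minus WT, was called for none of the 12 and for 0% of all probe sets by limma, whose smallest adjusted p was 1.00. At an unadjusted p under 0.05 there were 2 of 12 (Dhrs3 and Lrat) and 1168 of 37600, where chance alone gives 1880.

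**Figure D1:**
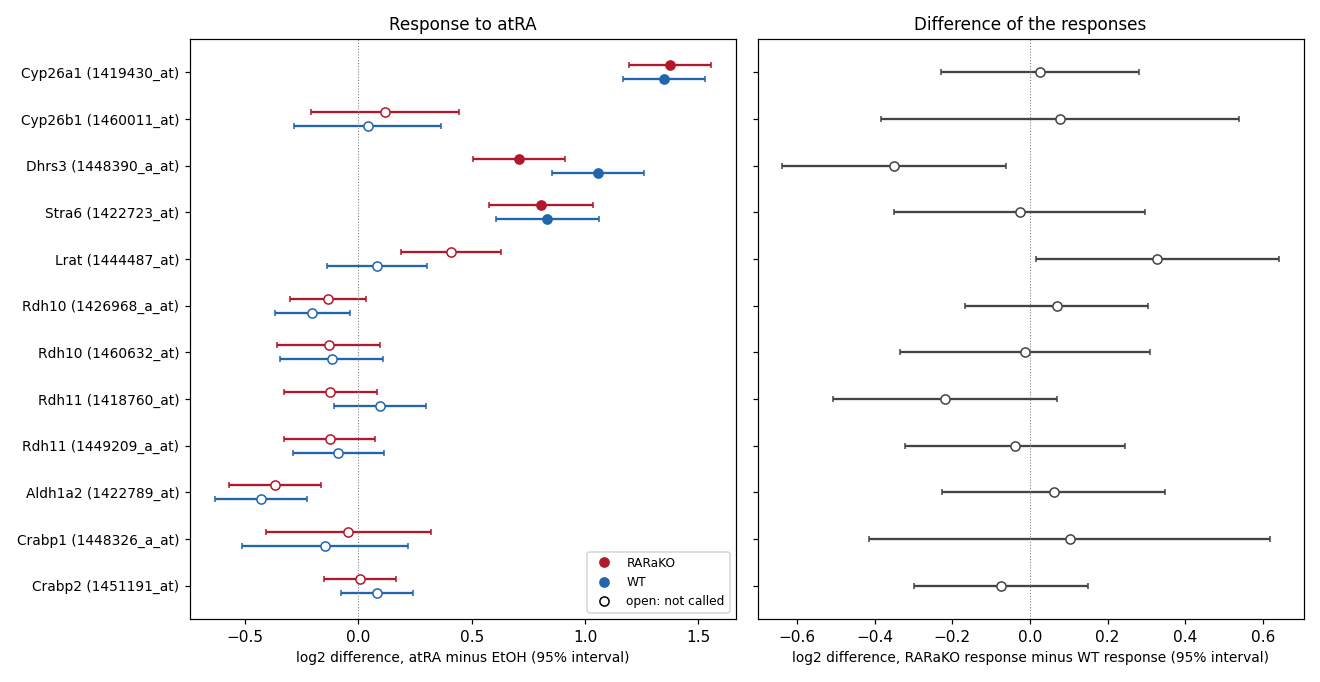
The left panel plots the log2 difference between atRA and EtOH arrays for each of the 12 probe sets, in arrays labelled RARaKO and in WT arrays. The right panel plots the difference between these responses, RARaKO minus WT. Points are limma estimates from 3 arrays a group, bars are 95% intervals, and filled points have an adjusted p under 0.05. Cyp26a1, Dhrs3 and Stra6 are filled in both responses, and no point is filled in the right panel.

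Of the breakdown enzymes, Cyp26a1 had the values that parted most clearly. In arrays labelled RARaKO it stood at 0.68, 0.63 and 0.57 with atRA, against -0.70, -0.73 and -0.82 with EtOH. In WT arrays it stood at 0.67, 0.66 and 0.65 with atRA, against -0.57, -0.90 and -0.59 with EtOH. All 6 atRA arrays lay above all 6 EtOH arrays, and within each treatment the genotypes overlapped. The response was 1.38 ± 0.08 in arrays labelled RARaKO (SE, 95% interval 1.20 to 1.56, limma adjusted p = 2.37e-05), the second highest of all 37600 differences there. In WT arrays it was 1.35 ± 0.08 (95% interval 1.17 to 1.53, limma adjusted p = 1.33e-05), the seventh highest. Within sets the response was 1.37, 1.36 and 1.40 in arrays labelled RARaKO and 1.24, 1.56 and 1.24 in WT arrays. The responses differed by 0.03 ± 0.12, with a 95% interval of -0.23 to 0.28, so differences within that range could not be told from none at this number of arrays. RARaKO minus WT was -0.04 ± 0.08 in atRA and -0.06 ± 0.08 in EtOH, neither called. In these bulk RNA samples, more cells that express a gene and more RNA per cell cannot be told apart.

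The related enzyme Cyp26b1 showed no such separation. With atRA it stood at -0.31, 0.29 and 0.06 in arrays labelled RARaKO, against -0.09, -0.31 and 0.09 with EtOH. In WT arrays the values were 0.12, 0.06 and -0.26 with atRA, against -0.21, -0.06 and 0.06 with EtOH. The groups overlapped in every comparison, and the spread within a group reached an SD of 0.30. Its response was 0.12 ± 0.15 in arrays labelled RARaKO (95% interval -0.21 to 0.44) and 0.04 ± 0.15 in WT arrays (95% interval -0.29 to 0.37), with limma adjusted p of 0.898 and 0.986. A change of the size seen for Cyp26a1 lies outside both intervals.

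**Figure D2:**
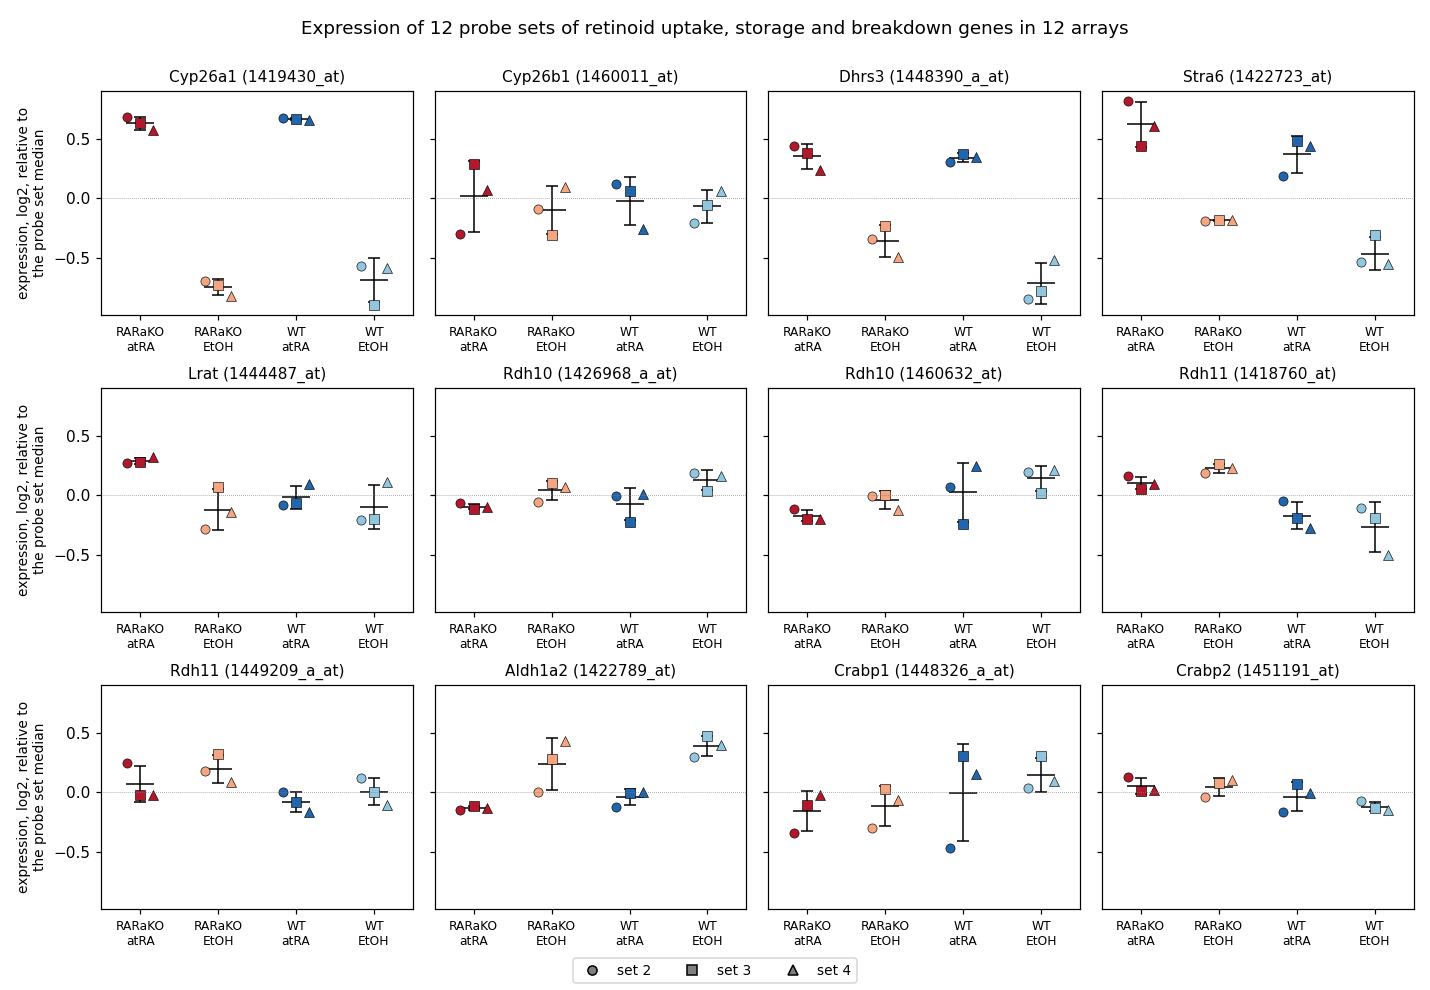
Each panel plots 1 probe set over the 12 arrays, with the centred log2 value on the vertical axis and the groups RARaKO atRA, RARaKO EtOH, WT atRA and WT EtOH from left to right. Marker shapes give the set number, and bars give the mean ± SD of 3 arrays. The atRA arrays of Cyp26a1, Dhrs3 and Stra6 lie above all their EtOH arrays in both genotypes, and those of Aldh1a2 lie below.

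Dhrs3, whose product turns retinal back into retinol, rose in both genotypes. Values in arrays labelled RARaKO were 0.43, 0.38 and 0.23 with atRA, against -0.34, -0.23 and -0.50 with EtOH. WT arrays gave 0.30, 0.37 and 0.35 with atRA, against -0.85, -0.78 and -0.52 with EtOH. The atRA arrays of both genotypes shared a range, whereas the EtOH arrays labelled RARaKO all lay above the WT EtOH arrays. The response was 0.71 ± 0.09 in arrays labelled RARaKO (95% interval 0.50 to 0.91, limma adjusted p = 0.00628) and 1.06 ± 0.09 in WT arrays (95% interval 0.85 to 1.26, limma adjusted p = 1.76e-04). Within sets it was 0.78, 0.62 and 0.73 in arrays labelled RARaKO and 1.15, 1.15 and 0.87 in WT arrays. The RARaKO response minus the WT response was -0.35 ± 0.13, with a 95% interval of -0.64 to -0.06. Its unadjusted p of 0.0214 did not hold over the table (limma adjusted p = 1.00). The same arrays give the genotype differences of Dhrs3, 0.01 ± 0.09 in atRA (limma adjusted p = 0.971) and 0.36 ± 0.09 in EtOH (limma adjusted p = 0.0630), neither called. The difference in EtOH passed when set 4 was left out (0.53, limma adjusted p = 0.0345), as it did without the set 4 array of RARaKO EtOH (0.43, limma adjusted p = 0.0472) or of WT EtOH (0.46, limma adjusted p = 0.0276). In 11 of 16 alternatives this difference stayed uncalled. Over all 16 it ran from 0.20 to 0.53, with limma adjusted p of up to 0.468. Within sets 2, 3 and 4 it was 0.50, 0.55 and 0.02.

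Stra6, the retinol transporter, also rose in both genotypes. It stood at 0.82, 0.44 and 0.60 in atRA arrays labelled RARaKO, against -0.19, -0.19 and -0.18 in the EtOH arrays. In WT arrays it stood at 0.18, 0.48 and 0.43 with atRA, against -0.54, -0.31 and -0.55 with EtOH. No atRA array overlapped an EtOH array in either genotype, and the EtOH arrays labelled RARaKO lay above all WT EtOH arrays. The response was 0.81 ± 0.11 in arrays labelled RARaKO (95% interval 0.58 to 1.03, limma adjusted p = 0.00618) and 0.83 ± 0.11 in WT arrays (95% interval 0.60 to 1.06, limma adjusted p = 0.00224). Within sets it was 1.01, 0.62 and 0.79 in arrays labelled RARaKO and 0.72, 0.79 and 0.99 in WT arrays. The difference of responses was -0.03 ± 0.15, with a 95% interval of -0.35 to 0.30. RARaKO minus WT was 0.25 ± 0.11 in atRA (limma adjusted p = 0.227) and 0.28 ± 0.11 in EtOH (limma adjusted p = 0.208), not called in either.

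The calls of Dhrs3 and Stra6 in arrays labelled RARaKO held when any single array was left out, with limma adjusted p of at most 0.0356 and 0.0441. They were lost when a whole set was left out, with responses of 0.67 to 0.75 for Dhrs3 (adjusted p of up to 0.270) and 0.71 to 0.90 for Stra6 (adjusted p 0.108 to 0.245). In a fit of the 6 RARaKO arrays alone they missed the threshold too, with adjusted p of 0.0735 and 0.0689. The WT call of Stra6 was lost without set 4 (0.76, limma adjusted p = 0.199), and those of Cyp26a1 stood throughout. A measure of RNA quality, the mean difference between 5′ and 3′ probe sets of 4 control genes, moved with the WT groups. It ran from -0.02 to 0.02 in WT atRA arrays, against -0.12 to -0.08 in WT EtOH arrays. In the arrays labelled RARaKO it overlapped, at 0.00 to 0.09 with atRA and -0.02 to 0.13 with EtOH. Its part in the WT result was not tested.

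Lrat, the enzyme that stores retinol as esters, had its highest values in the atRA arrays labelled RARaKO. They were 0.27, 0.28 and 0.32, against -0.28, 0.06 and -0.14 with EtOH. WT values were -0.08, -0.06 and 0.09 with atRA, against -0.21, -0.20 and 0.11 with EtOH. The 3 RARaKO atRA arrays lay above the other 9, while the WT groups overlapped. The response was 0.41 ± 0.10 in arrays labelled RARaKO (95% interval 0.19 to 0.63, limma adjusted p = 0.203) and 0.08 ± 0.10 in WT arrays (95% interval -0.14 to 0.30, limma adjusted p = 0.940), and neither was called. Within sets the response was 0.55, 0.21 and 0.46 in arrays labelled RARaKO and 0.13, 0.13 and -0.02 in WT arrays. The difference of responses was 0.33 ± 0.14 (95% interval 0.02 to 0.64), with an unadjusted p of 0.0413 and a limma adjusted p of 1.00. RARaKO minus WT in atRA was 0.31 ± 0.10 (limma adjusted p = 0.132).

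Aldh1a2, which makes retinoic acid from retinal, had lower values with atRA in both genotypes but missed the threshold. In arrays labelled RARaKO it stood at -0.15, -0.12 and -0.13 with atRA, against 0.00, 0.28 and 0.43 with EtOH. In WT arrays it stood at -0.12, -0.01 and -0.00 with atRA, against 0.30, 0.47 and 0.39 with EtOH. Every atRA array lay below every EtOH array, the reverse of the order for Cyp26a1, although the highest atRA array and the lowest EtOH array were both near 0. The response was -0.37 ± 0.09 in arrays labelled RARaKO (95% interval -0.57 to -0.17, limma adjusted p = 0.207) and -0.43 ± 0.09 in WT arrays (95% interval -0.63 to -0.23, limma adjusted p = 0.0757). Within sets it was -0.15, -0.40 and -0.56 in arrays labelled RARaKO and -0.42, -0.47 and -0.40 in WT arrays. With the set as a block, the pairing that the arrays showed, the WT difference was called (-0.43 ± 0.08, limma adjusted p = 0.0232) and the RARaKO difference was not (limma adjusted p = 0.0776). The WT difference was also called with array weights, quantile normalization and means per gene, with limma adjusted p of up to 0.0496. In the other 12 of 16 alternatives it was not called, with limma adjusted p of up to 0.713. Without the set 2 array of RARaKO EtOH the RARaKO difference was -0.49 and was called (limma adjusted p = 0.0395). The other 15 of 16 alternatives left the RARaKO difference uncalled. Over all 16 it ran from -0.49 to -0.27, with limma adjusted p of up to 0.826. The responses differed by 0.06 ± 0.13, with a 95% interval of -0.23 to 0.35.

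Rdh10, which starts the route from retinol to retinoic acid, was not called. For 1426968_a_at the values in arrays labelled RARaKO were -0.07, -0.12 and -0.10 with atRA, against -0.05, 0.10 and 0.07 with EtOH. WT values were -0.01, -0.23 and 0.01 with atRA, against 0.19, 0.03 and 0.16 with EtOH. The groups did not overlap in either genotype, though the nearest arrays lay close together. The response of this probe set was -0.13 ± 0.08 in arrays labelled RARaKO and -0.20 ± 0.08 in WT arrays, with limma adjusted p of 0.709 and 0.525. The other probe set, 1460632_at, gave -0.13 ± 0.11 and -0.12 ± 0.11 (limma adjusted p = 0.819 and 0.899), and its groups overlapped. The WT arrays of this probe set varied more, from -0.24 to 0.24 with atRA.

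Over all 5 comparisons of the main fit, the 7 genes other than Cyp26a1, Dhrs3 and Stra6 gave a single call, that of Rdh11 in vehicle. In EtOH, RARaKO against WT, 1 of the 12 probe sets was called, higher, against 3.01% for the whole table, 1.84% higher and 1.16% lower. With the set as a block, 1972 in place of 1131 of all probe sets were called there. In atRA, RARaKO against WT, none of the 12 was called by limma, against 3.12% for the whole table, 1.61% higher and 1.51% lower. At an unadjusted p under 0.05 there were 3 of the 12 in atRA (Stra6, Lrat and Rdh11), against 6742 of all 37600, and 4 of the 12 in EtOH (Rdh11, Dhrs3, Stra6 and Crabp2), against 5771 of 37600. The 2 genotype comparisons share no arrays, but each shares a group with each response.

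**Figure D3:**
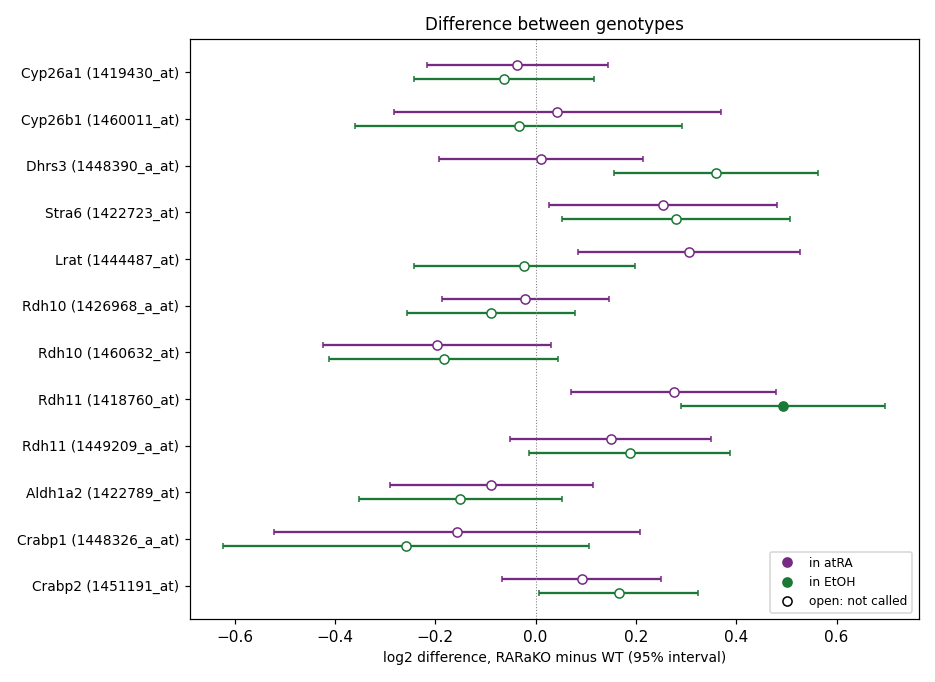
The plot gives the log2 difference RARaKO minus WT for each of the 12 probe sets, in atRA and in EtOH, as limma estimates from 3 arrays a group with 95% intervals. Filled points have an adjusted p under 0.05. Rdh11 (1418760_at) in EtOH, at 0.49, is the only filled point.

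Rdh11, a reductase of retinal, was higher in EtOH arrays labelled RARaKO by 1418760_at. With atRA this probe set stood at 0.16, 0.05 and 0.10 in arrays labelled RARaKO, against -0.05, -0.19 and -0.28 in WT arrays. With EtOH it stood at 0.19, 0.26 and 0.23 in arrays labelled RARaKO, against -0.11, -0.19 and -0.50 in WT arrays. The 6 RARaKO arrays lay above the 6 WT arrays. The genotype difference was 0.28 ± 0.09 in atRA (95% interval 0.07 to 0.48, limma adjusted p = 0.141, not called) and 0.49 ± 0.09 in EtOH (1.41-fold, 95% interval 0.29 to 0.70, limma adjusted p = 0.0132). Within sets it was 0.21, 0.24 and 0.37 in atRA and 0.30, 0.45 and 0.73 in EtOH.

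The other Rdh11 probe set, 1449209_a_at, rests on the same accession and gave a smaller difference. It stood at 0.18, 0.32 and 0.08 in EtOH arrays labelled RARaKO, against 0.12, 0.00 and -0.11 in WT EtOH arrays. These groups overlapped, and the difference was 0.19 ± 0.09 (95% interval -0.01 to 0.39, limma adjusted p = 0.364). With atRA, RARaKO minus WT was 0.15 ± 0.09 (limma adjusted p = 0.438). The mean of both probe sets differed by 0.34 in EtOH (limma adjusted p = 0.0383). The call of 1418760_at was lost without the set 3 array of RARaKO EtOH (0.48, limma adjusted p = 0.0616), without set 3 (0.51, limma adjusted p = 0.182) and without set 4 (0.38, limma adjusted p = 0.146). The 5′ to 3′ measure parted the same groups, at -0.02 to 0.13 in EtOH arrays labelled RARaKO, against -0.12 to -0.08 in WT EtOH arrays. Its part in this result was not tested, nor in the EtOH genotype differences of Dhrs3, Rara, Dhrs4 and Rarb, which rest on the same arrays. Neither probe set was called in a response to atRA: 1418760_at differed by -0.12 ± 0.09 in arrays labelled RARaKO and by 0.09 ± 0.09 in WT arrays, and 1449209_a_at by -0.13 ± 0.09 and -0.09 ± 0.09.

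The binding proteins gave no call. Crabp1 stood at -0.35, -0.11 and -0.03 in atRA arrays labelled RARaKO, against -0.31, 0.03 and -0.07 in the EtOH arrays. In WT arrays it stood at -0.47, 0.31 and 0.15 with atRA, against 0.03, 0.30 and 0.09 with EtOH. The set 2 arrays were the lowest of their group in all 4 groups, and the WT atRA arrays had an SD of 0.41, the widest spread among the 12 probe sets. Its response was -0.04 ± 0.17 in arrays labelled RARaKO (95% interval -0.41 to 0.32) and -0.15 ± 0.17 in WT arrays (95% interval -0.51 to 0.22). Crabp2 varied less. It stood at 0.13, 0.01 and 0.02 with atRA and at -0.04, 0.08 and 0.10 with EtOH in arrays labelled RARaKO, and at -0.17, 0.06 and -0.01 with atRA and -0.08, -0.13 and -0.15 with EtOH in WT arrays. Its response was 0.01 ± 0.07 in arrays labelled RARaKO (95% interval -0.15 to 0.17) and 0.08 ± 0.07 in WT arrays (95% interval -0.08 to 0.24). In EtOH the RARaKO arrays of Crabp2 lay above the WT arrays, by 0.17 ± 0.07 (limma adjusted p = 0.301).

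Separation of groups without regard to a test was more common than calls. The 3 atRA arrays lay wholly above or below the 3 EtOH arrays for 7 of the 12 probe sets in arrays labelled RARaKO, against 12.7% of all probe sets, and for 5 of 12 in WT arrays, against 13.6%. RARaKO arrays lay wholly above or below WT arrays for 2 of the 12 in atRA, against 20.4% of all probe sets, and for 6 of 12 in EtOH, against 22.4%. The members were chosen with earlier results of these data known, so these counts are descriptions.

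No other gene of retinoid handling was called in a response to atRA. Of 41 such genes, 31 were measured, by 52 probe sets, and a single probe set stood for each gene. None of the 31 was called by limma in either response or in the difference of responses, where the whole table had 0.263% in arrays labelled RARaKO, 0.569% in WT arrays and 0% for the difference. In the arrays labelled RARaKO, responses ran from -0.19 (Aldh1a1, a retinal dehydrogenase) to 0.31 (Rdh12, a reductase of retinal), with a median of -0.02 and 5 at an unadjusted p under 0.05, against 3083 of all 37600 probe sets. In WT arrays they ran from -0.32 (Lpl, a lipase) to 0.20 (Scarb1, a receptor that takes up carotenoids), with a median of 0.00 and 4 at an unadjusted p under 0.05, against 2734 of 37600. By role, the 8 genes of uptake and transport ran from -0.13 to 0.23 in arrays labelled RARaKO and from -0.11 to 0.20 in WT arrays. The 5 genes of ester formation and hydrolysis ran from -0.19 to 0.13 and from -0.32 to 0.07, and the 12 oxidoreductases from -0.18 to 0.31 and from -0.14 to 0.17. The 5 genes of retinal dehydrogenases and carotenoid cleavage ran from -0.19 to 0.25 and from -0.14 to 0.08. Fabp5, which carries retinoic acid to the nucleus, stood at -0.13 and -0.23.

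**Figure D4:**
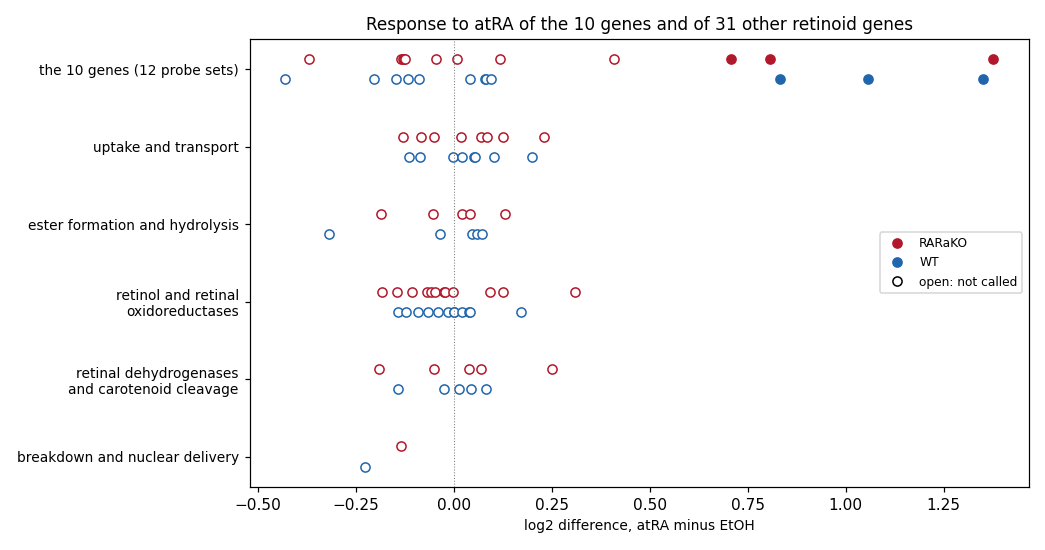
The plot sets the log2 atRA responses of the 10 genes beside those of 31 other retinoid genes, grouped by role, in arrays labelled RARaKO and in WT arrays. Each point is a probe set, with all 12 probe sets shown for the 10 genes and 1 for each of the other 31. Values are limma estimates from 3 arrays a group, and filled points have an adjusted p under 0.05. Cyp26a1, Dhrs3 and Stra6 are the filled points, and the other 31 genes stay between -0.32 and 0.31.

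Between genotypes, 2 of these 31 genes were called in atRA (Dhrs4 and Rdh12), against 3.12% of all probe sets. In EtOH 1 of them was called (Dhrs4), against 3.01% of all probe sets. Dhrs4, a carbonyl reductase, was lower in arrays labelled RARaKO by both probe sets. For 1419382_a_at it stood at -0.30, -0.37 and -0.27 in RARaKO atRA arrays, against 0.05, 0.14 and 0.14 in WT atRA arrays. With EtOH it stood at -0.23, -0.11 and -0.05 in arrays labelled RARaKO, against 0.27, 0.23 and 0.25 in WT arrays. All 6 RARaKO arrays lay below all 6 WT arrays, and the difference was -0.42 ± 0.06 in atRA (limma adjusted p = 0.00335) and -0.38 ± 0.06 in EtOH (limma adjusted p = 0.00650). For 1451559_a_at the difference was -0.52 ± 0.09 in atRA (limma adjusted p = 0.00636) and -0.39 ± 0.09 in EtOH (limma adjusted p = 0.0320), and its call in EtOH was lost without the set 2 or set 3 array of either group or the set 4 array of WT. Leaving out a whole set ended calls of both probe sets: 1419382_a_at in EtOH without any of the 3 sets (adjusted p of up to 0.112) and in atRA without set 3 or 4 (up to 0.109), and 1451559_a_at in EtOH without any of them (up to 0.244) and in atRA without set 2 or 3 (up to 0.153). Rdh12 was higher in atRA arrays labelled RARaKO by 1424256_at, by 0.51 ± 0.12 (limma adjusted p = 0.0369). Its other probe set, 1431010_a_at, gave 0.14 ± 0.09 (limma adjusted p = 0.470). The call of Rdh12 was lost without any of the 3 RARaKO atRA arrays, and without the WT atRA arrays of set 2 or set 3, with adjusted p of up to 0.214 over all alternatives.

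The receptor gene Rarb, another retinoic acid target, gave values in the order seen for Dhrs3. Its response was 0.95 ± 0.09 in arrays labelled RARaKO and 1.35 ± 0.09 in WT arrays, both called (limma adjusted p = 4.05e-04 and 1.33e-05). RARaKO minus WT was 0.14 ± 0.09 in atRA (limma adjusted p = 0.424) and 0.54 ± 0.09 in EtOH (limma adjusted p = 0.00394, called). The difference of its responses, -0.40 ± 0.12, was not called (limma adjusted p = 1.00). Without set 2 or set 3 the calls of the RARaKO response and of the difference in EtOH were lost, with limma adjusted p of up to 0.106 and 0.0771. The difference in EtOH was also lost with quantile normalization, at 0.30 (limma adjusted p = 0.128).

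The probe sets most like the called genes over the 12 arrays were taken by Pearson correlation, as a description of arrays that share treatments. Nearest to Cyp26a1 were Grasp (0.990), Prss46 (0.979), Foxp1 (0.978), Nrip1 (0.972), the last encoding a corepressor of nuclear receptors, and Enpp4 (0.970). Their responses to atRA ran from 0.47 for Enpp4 to 1.17 for Nrip1 in arrays labelled RARaKO and from 0.47 for Foxp1 to 1.09 for Nrip1 in WT arrays. Nearest to Dhrs3 were Csn3 (0.974), Adgra2 (0.972), Camk2n1 (0.969), Tle6 (0.969) and Cidea (0.967). Csn3, the kappa-casein gene, responded by 1.21 in arrays labelled RARaKO and 1.57 in WT arrays. It was also near Stra6 (0.978), together with Sult4a1 (0.979), Cdkn2d (0.975), Zmym3 (0.967) and Afap1l1 (0.963). The 5 nearest to Rdh11 were Epm2aip1 (0.977), Lpcat1 (0.966), Haspin (0.962), Grk3 (0.960) and Ccdc127 (0.947), which in EtOH differed between genotypes by 0.18 to 0.77.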

How the data were processed

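Transcripts of 12 samples of F9 cells (4 groups of 3) were measured on Affymetrix arrays, whose number limits the precision. The authors deposited 1 log2 expression value per probe set and array, processed with GCRMA per the submitters' processing notes (version not given) whose log base no label states. Each deposited row was found centred on its median over 12 arrays, a step no label records. The values' single-precision spacing gave a coarse level class (steps matched within 0.1 of a step in at least 0.75 of 66 array pairs). By it, 91 of 111 ribosomal protein probe sets and 1 of 27 olfactory receptor probe sets lay at 8 or above. Leaving out 61 controls from 37661 probe sets gave 37600 to test; 30488 of these had a single symbol in the probe annotation, 784 had several and 6328 none.

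One limma model (version 3.58.1, R 4.3.3) of group means without a block was fitted to the 12 arrays, with moderated variances (8 residual, 4.60 prior degrees of freedom). Tests were two-sided, with Benjamini-Hochberg adjustment over the 37600 probe sets. An adjusted p under 0.05 was called, and fold changes assume base 2. The code was tested on simulated data. Errors after ± are SE for differences and SD for group means.

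Same-set arrays deviated together, with correlations of 0.10 to 0.39 (WT response), 0.12 to 0.50 (RARaKO response) and 0.12 to 0.24 (genotype in EtOH), each above 0.1. In the genotype comparison in atRA they were 0.04 to 0.29, so it was not taken as paired. Alternatives were a set block, arrays or sets left out, array weights, only the arrays compared, other scalings, the class of 8 or above, a robust prior and means per gene. Named were the 10 genes, called genes of the wider retinoid list, receptors set beside a result, and the 5 probe sets nearest to Cyp26a1, Dhrs3, Stra6 and Rdh11. The members and lists were chosen with earlier results of these data known.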

Additional observations from a re-analysis of the deposited data

How the results depend on the processing

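Over all alternatives, 1013 of 1035 recomputed values of the 10 genes kept their side of the threshold. No called difference reversed, 12 lost the call and 10 gained it. Some differences that were not called changed sign, among them the WT response of Crabp1, which ran from -0.30 to 0.08. For 53 of 60 gene values no call changed, and the other 7 are given with their values in the report. With the set as a block, the calls over all probe sets were 167 for the response in RARaKO, 339 for the response in WT, 1972 for RARaKO against WT in EtOH and 2344 in atRA, and among the 10 genes the block changed only the call of Aldh1a2 in WT. Array weights gave 382 calls for the WT response and 2071 for the genotypes in EtOH. With only the arrays compared there were 14 calls for the RARaKO response and 592 for the genotypes in atRA. Means per gene gave 684 in EtOH and 777 in atRA of 16509. Leaving out 1 array gave 39 to 69 calls for the RARaKO response, 107 to 128 for WT, 545 to 859 for the genotypes in EtOH and 532 to 1085 in atRA. Leaving out a set gave 2 to 17, 40 to 61, 217 to 653 and 320 to 335. The difference of responses stayed at 0 under every alternative.

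Among the 12 probe sets, the RARaKO response kept 1 call (Cyp26a1) with only the arrays compared or without any 1 set, and 3 to 4 without an array. The WT response kept 3 without an array and 2 to 3 without a set, and had 4 with the block, array weights, quantile normalization or means per gene (Aldh1a2 added). With the class of 8 or above alone, which leaves out Dhrs3 and Stra6, each response had 1 call of 5. RARaKO against WT in EtOH had 2 calls with array weights and with means per gene (Dhrs3 added), 0 to 2 without an array and 0 to 1 without a set, and 0 calls in atRA throughout. Dim probe sets could be filtered only by this coarse class, since the centred values hold no finer level.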

Other observations

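Some of the wider retinoid genes had treatment groups that did not overlap. In the arrays labelled RARaKO, 7 of 31 genes (22.6%) had atRA arrays wholly above or below the EtOH arrays, 4 above (Rdh12, Rbp3, Bco2 and Rdh7) and 3 below, and in WT arrays 3 of 31 (9.68%) did. Over all probe sets the share was 12.7% in arrays labelled RARaKO and 13.6% in WT arrays, and whether the genotypes differ in these counts was not tested. Rbp3, a retinoid carrier between cells of the retina, differed by 0.23 ± 0.07 in arrays labelled RARaKO and by -0.00 ± 0.07 in WT arrays. Bco2, which cleaves carotenoids, differed by 0.25 ± 0.13 and -0.14 ± 0.13. Rdh12 differed by 0.31 ± 0.12 and -0.02 ± 0.12. The difference of responses was 0.23 ± 0.10 for Rbp3, 0.39 ± 0.19 for Bco2 and 0.32 ± 0.17 for Rdh12, each with a limma adjusted p of 1.00, and these genes were singled out after their values were seen.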
